A study of Homo sapiens with 3 samples.

Results

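Chromatin accessibility at the genes of 3 solute carrier families was described in hCMEC/D3, a human line derived from the endothelium of small brain vessels and immortalized for culture. The members were the protein-coding genes of a RefSeq gene table whose symbols read SLC2A, SLC5A or SLC16A followed by digits. This gave 40 genes of 20037 protein-coding genes, with 14 in SLC2A, 12 in SLC5A and 14 in SLC16A. The series holds 3 libraries of this line, 2 of RNA and 1 of ATAC-seq, all from untreated cells of passages 4 to 6 that were grown to confluence on collagen. There was no second cell type, genotype or treatment, and the line is an immortalized culture without the flow and the neighbouring cells of a brain vessel. In ATAC-seq the Tn5 transposase cuts and tags open DNA, so tags pile up where chromatin is accessible. The ATAC library, replicate 2 per its title, is the only library with values for these genes here, so no replicate error exists and no test between groups was made. Every value below describes that library.

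The SLC2A family encodes the GLUT proteins. Most let hexoses or urate pass down their gradients, and SLC2A13 carries inositol together with protons. The SLC5A family uses the sodium gradient to move sugars, inositol, iodide, choline, vitamins or monocarboxylates into cells. The SLC16A family includes the proton-coupled carriers of lactate, pyruvate and ketone bodies as well as carriers of thyroid hormone and amino acids. At the blood-brain barrier SLC2A1 (GLUT1) is the main glucose carrier, and SLC16A1 (MCT1) carries lactate and ketone bodies.

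A peak is a region the caller found enriched in tags. Its pileup is the height of the extended tags averaged over the bases of the region, so it does not grow with peak length, and its fold is the pileup plus 1 over a local background plus 1, both from the same library. Backgrounds given here were computed back from fold and pileup. A peak counted as lying at a gene end when it overlapped the 1 kb on either side of the lowest or the highest coordinate of the gene, and as inside when it overlapped only the rest. The list held 106415 peaks from 22188172 tags, with pileups of 8.0 to 248 and a median of 21.6. Where no peak was called, accessibility was below what this depth could detect; it is not shown to be absent. Positions are those of the peak list on GRCh38, a build that the submitters' processing notes name beside mm10. The gene table gives no exons, so peaks inside genes could not be divided into exonic and intronic ones. As a check of the cell type label, all 13 endothelial markers had an end peak, as did 5 of 8 mural, 4 of 7 epithelial, 3 of 6 astrocyte, 4 of 6 neuronal and 5 of 5 immune markers, against 72.8% of all protein-coding genes. The endothelial pileups ran from 10.01 to 75.0 tags and the immune ones from 10.4 to 93.6, so an end peak by itself did not separate these lists.

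The sequences shown here are the 250 bases before the annotated start of 6 members, from RefSeq on GRCh38.p14. They were chosen because they pair members whose start was accessible, with high or low CpG content, with members whose start was not. Both starts shown without a peak were rich in CpG, which most member starts without a peak were not. SLC2A1 and SLC2A8 carried the highest end pileups of their family. SLC2A12 had a peak at a start poor in CpG. SLC16A10, a carrier of aromatic amino acids and thyroid hormone, had a peak of low pileup at a CpG-rich start. SLC5A7, the choline carrier of cholinergic neurons, and SLC5A8, a sodium-coupled monocarboxylate carrier, had no peak. Each sequence runs 5′ to 3′ on the strand of its gene. Capitals mark the GC box GGGCGG, the CCAAT box CCAAT and the TATA box TATAAA on either strand.
SLC2A1: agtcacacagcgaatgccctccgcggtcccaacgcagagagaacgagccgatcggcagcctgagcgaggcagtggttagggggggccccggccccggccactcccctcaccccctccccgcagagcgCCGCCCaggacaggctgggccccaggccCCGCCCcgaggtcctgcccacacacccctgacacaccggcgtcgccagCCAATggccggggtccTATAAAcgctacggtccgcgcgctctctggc
SLC2A8: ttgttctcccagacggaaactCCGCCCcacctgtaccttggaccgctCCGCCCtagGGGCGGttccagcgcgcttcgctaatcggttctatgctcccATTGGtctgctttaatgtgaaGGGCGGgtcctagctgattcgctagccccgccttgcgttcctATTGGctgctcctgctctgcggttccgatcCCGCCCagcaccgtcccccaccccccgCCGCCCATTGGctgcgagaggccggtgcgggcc
SLC2A12: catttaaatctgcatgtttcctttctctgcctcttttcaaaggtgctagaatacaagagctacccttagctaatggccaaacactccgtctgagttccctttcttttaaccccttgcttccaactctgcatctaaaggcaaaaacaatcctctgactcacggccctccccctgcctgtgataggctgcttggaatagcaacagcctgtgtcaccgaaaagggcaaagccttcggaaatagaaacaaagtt
SLC16A10: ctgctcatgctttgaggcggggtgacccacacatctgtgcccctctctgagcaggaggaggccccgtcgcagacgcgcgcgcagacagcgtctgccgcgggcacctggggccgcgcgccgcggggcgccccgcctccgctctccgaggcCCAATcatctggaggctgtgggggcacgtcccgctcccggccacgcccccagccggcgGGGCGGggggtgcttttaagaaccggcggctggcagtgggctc
SLC5A7: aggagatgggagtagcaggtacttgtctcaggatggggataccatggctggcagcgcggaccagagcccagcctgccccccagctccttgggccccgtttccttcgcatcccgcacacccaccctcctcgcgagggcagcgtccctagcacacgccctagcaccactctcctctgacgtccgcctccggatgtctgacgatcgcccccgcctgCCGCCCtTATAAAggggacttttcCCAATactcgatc
SLC5A8: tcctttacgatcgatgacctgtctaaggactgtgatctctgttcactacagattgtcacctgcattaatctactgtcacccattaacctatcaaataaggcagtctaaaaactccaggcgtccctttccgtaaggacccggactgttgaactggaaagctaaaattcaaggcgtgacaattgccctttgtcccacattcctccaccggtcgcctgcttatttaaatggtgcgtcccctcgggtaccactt
They lie at chr1:42958869-42959118 on the minus strand for SLC2A1, chr9:127396919-127397168 on the plus strand for SLC2A8, chr6:134052625-134052874 on the minus strand for SLC2A12, chr6:111087253-111087502 on the plus strand for SLC16A10, chr2:107986274-107986523 on the plus strand for SLC5A7 and chr12:101210239-101210488 on the minus strand for SLC5A8. The TATA box of SLC2A1 began 31 bases before its start and that of SLC5A7 began 30 bases before its start. SLC2A1 and SLC5A7 thus share a GC box, a CCAAT box and a TATA box in this window, and a peak was called at SLC2A1 only. SLC2A8 held 6 GC boxes and 3 CCAAT boxes. SLC2A12 had a peak with none of these motifs, and SLC5A8 had neither a motif nor a peak.

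Most SLC16A genes, and fewer of the SLC2A and SLC5A genes, had an end peak in the authors' full list, and this order depended on the fold. An end peak was called at 13 of 14 SLC16A genes (92.9%, 95% Wilson interval over genes 68.5% to 98.7%), at 9 of 14 SLC2A genes (64.3%, 38.8% to 83.7%) and at 5 of 12 SLC5A genes (41.7%, 19.3% to 68.0%). Over all protein-coding genes the share was 72.8%. When lower folds were dropped and 4-fold or higher kept, SLC16A had 7 of 14 (50%), SLC2A 8 of 14 (57.1%) and SLC5A 3 of 12 (25%), against 56.0% of protein-coding genes, so SLC16A then stood below SLC2A. In the full list the intervals of SLC16A and SLC5A did not overlap, by a narrow margin, and that of SLC2A overlapped both. The intervals treat the genes of a family as independent draws, although every member was counted, and they hold no replicate error. Whether they overlap is therefore no test between families, and no such test was made. Counting peaks inside the gene as well, all 14 SLC2A and all 14 SLC16A genes had a peak, against 8 of 12 SLC5A genes (66.7%) and 83.7% of protein-coding genes. The 4 members with no peak at all were SLC5A7, SLC5A8, SLC5A9 and SLC5A12.

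Sharing of end peaks with neighbouring genes differed between the families. In SLC5A, 4 of the 5 genes with an end peak shared that peak with the end of another coding gene, leaving 1 of 12 genes (8.33%, 95% Wilson interval 1.49% to 35.4%) with an end peak of its own. In SLC2A all 9 genes and in SLC16A all 13 genes had an end peak that lay at no other coding gene end. Among protein-coding genes 55.5% had such a peak, and 3475 of the 14595 with an end peak had only shared ones. From which gene's activity a shared peak arises was not tested.

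**Figure D1:**
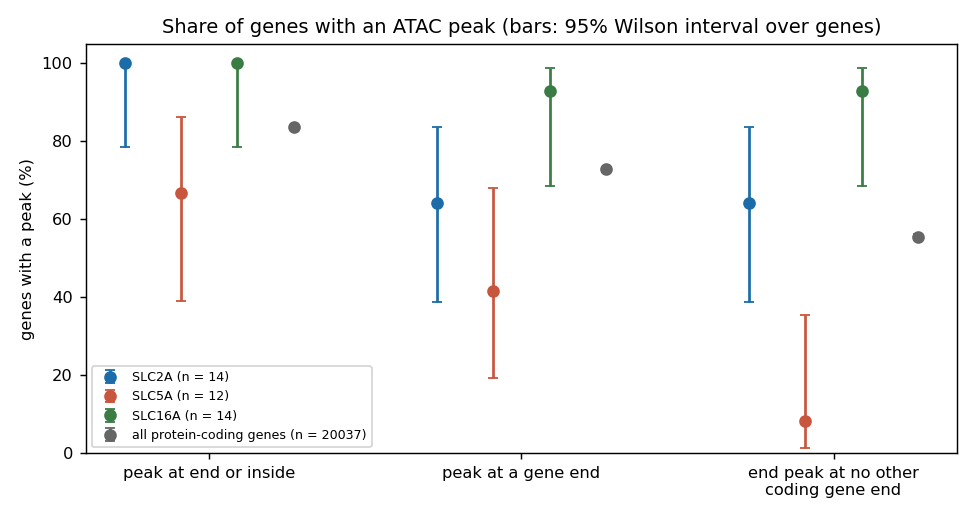
Percent of genes with an ATAC peak for 3 definitions (x axis), by family in colour and over 20037 protein-coding genes in grey; bars are 95% Wilson intervals over genes, narrower than the symbol for all coding genes. SLC5A falls from 41.7% to 8.33% when end peaks shared with other coding genes are left out, while SLC2A and SLC16A stay at 64.3% and 92.9%.

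Gene length moves with the chance of a peak and was compared between families. Median gene length was 31.9 kb in SLC2A, 43.7 kb in SLC5A and 31.1 kb in SLC16A, against 24.1 kb over protein-coding genes. Of the coding genes from 24.1 to 65.1 kb long, 80.5% had an end peak. In that length range an end peak was found at 3 of 7 SLC2A, 1 of 5 SLC5A and 5 of 5 SLC16A genes. Up to 8.54 kb the counts were 2 of 2, 0 of 1 and 2 of 3 in the same order, against 57.9% of coding genes. Between these ranges they were 2 of 2 in each family, against 75.3%. Above 65.1 kb they were 2 of 3, 2 of 4 and 4 of 4, against 77.7%. These counts are too few to order the families at matched length.

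The 40 genes held 135 peaks, with 48 in SLC2A, 35 in SLC5A and 52 in SLC16A. Of these, 33 lay at gene ends and 102 inside. The median number per gene was 2 in SLC2A, 2 in SLC5A and 2.5 in SLC16A, against 2 over protein-coding genes. Pooled over each family, per 10 kb of gene and flanks, there were 0.458 peaks in SLC2A, 0.575 in SLC5A and 0.610 in SLC16A. Protein-coding genes pooled alike had 0.482. Taken gene by gene, the median per 10 kb of gene was 0.80 in SLC2A, 0.52 in SLC5A and 0.89 in SLC16A, against 0.73. SLC2A thus stood below coding genes in the pooled value and above them in the median. Median peak length was 516 bp in SLC2A, 416 bp in SLC5A and 634 bp in SLC16A, against 489 bp. Median pileup was 23.6, 21.5 and 27.3 tags in the same order, against 23.5. These medians differ by far less than the values within each family, which ran from 8.0 to 78.9 tags in SLC2A, 9.92 to 62.9 in SLC5A and 8.53 to 79.5 in SLC16A.

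Highest end pileups had lower medians in each family than over coding genes. The median of each gene's highest end pileup was 37.4 tags in SLC2A, 24.8 in SLC5A and 28.4 in SLC16A, compared with 45.7 over coding genes with an end peak. Of the 27 members with an end peak, 9 reached 45.7 tags: SLC2A8, SLC2A1, SLC2A6, SLC5A4, SLC5A6, SLC16A3, SLC16A13, SLC16A1 and SLC16A5. An end peak with a fold of at least 4 and a −log10 q of at least 5 was found at 18 of 40 members, with 8 in SLC2A, 3 in SLC5A and 7 in SLC16A. Over protein-coding genes this share was 55.6%.

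**Figure D2:**
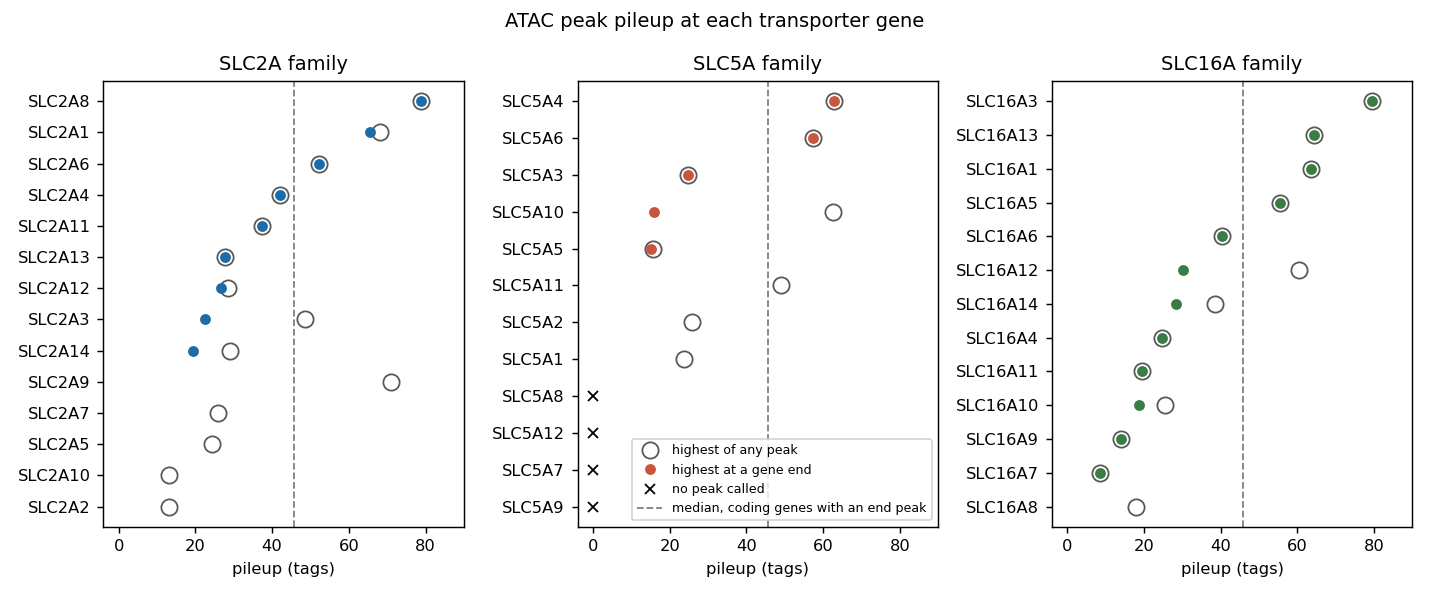
Highest pileup in tags (x axis) at each of 39 of the 40 genes (y axis) in 3 panels by family; filled points are end peaks, open circles are the highest of any peak, crosses are genes with no peak, and the dashed line is the coding median of 45.7 tags. SLC2A8, SLC2A1, SLC16A3 and SLC16A1 lie to the right of the line, and the 4 crosses are all in SLC5A.

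SLC2A1, at chr1:42925353-42958868 on GRCh38.p14, had 8 peaks, place 2 in its family after the 11 of SLC2A9. Only 2 of them had a fold of at least 4, and with such peaks alone SLC2A1 stood at place 5 by number and place 6 by summed length. Its start was covered by a peak at chr1:42957828-42959509 with a pileup of 65.5 tags, place 2 of the 9 SLC2A genes with an end peak, behind SLC2A8. The same peak lay at the end of SLC2A1-DT, a divergent long noncoding RNA gene. The other end carried a second peak at chr1:42923986-42924964 with 58.2 tags and a fold of 5.07. Between them 6 peaks lay inside the gene. The highest of these, at chr1:42940789-42942086, reached 68.1 tags and a length of 1298 bp, centred 17.4 kb downstream of the start. A neighbour at chr1:42943200-42943612 reached 55.4 tags. The remaining inside peaks had 20.9 to 31.0 tags. Per 10 kb of gene SLC2A1 had 2.39 peaks, the highest value of the 14 SLC2A genes and the 87.0th percentile of protein-coding genes.

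The fold placed SLC2A1 differently. Each gene was taken here by its end peak of highest pileup, and the other end peak of SLC2A1 had a fold of 5.07. The SLC2A1 start peak had a fold of 3.90, place 8 of the 9 SLC2A genes with an end peak, over a local background of 16.1 tags. That background was the highest among the highest end peaks of these 9 genes, while an inside peak of SLC2A1 had 18.2. SLC2A8 had 14.4 tags of background at its end peak and SLC2A12, with the highest fold of 6.97, had 2.97. With no control sample, the background came from the same library and can hold tags of the peak itself and its neighbours. A low fold is therefore no measure independent of the pileup. Pileup and local background were both high at SLC2A1, and their parts in the fold were not separated.

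SLC16A1, at chr1:112911847-112956196, had 4 peaks, a number that put it at place 4 of 14 in its family together with SLC16A5. At its upper end a peak at chr1:112955297-112957074 reached 63.6 tags over 1778 bp. This was place 3 in the family by pileup, behind SLC16A3 with 79.5 and SLC16A13 with 64.3, and place 2 by peak length behind SLC16A5. The peak also covered the end of SLC16A1-AS1, an antisense noncoding gene. Its fold was below 4, so at a minimum of 4 it was lost and SLC16A1 stood at place 7 by pileup. The promoter table holds no entry for SLC16A1. The 3 inside peaks had lower pileups, of 24.9, 14.8 and 9.86 tags. Their folds were 4.47, 4.68 and 3.22 in the same order, so 2 of them passed the minimum of 4. The fold of the end peak was 3.46, place 12 of the 13 SLC16A genes with an end peak, over a background of 17.7 tags. Set among coding genes with an end peak, the end pileup of SLC16A1 stood at the 79.8th percentile and that of SLC2A1 at the 81.7th. The folds of these same peaks, each gene taken by its end peak of highest pileup, stood at the 13.4th and 22.4th.

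**Figure D3:**
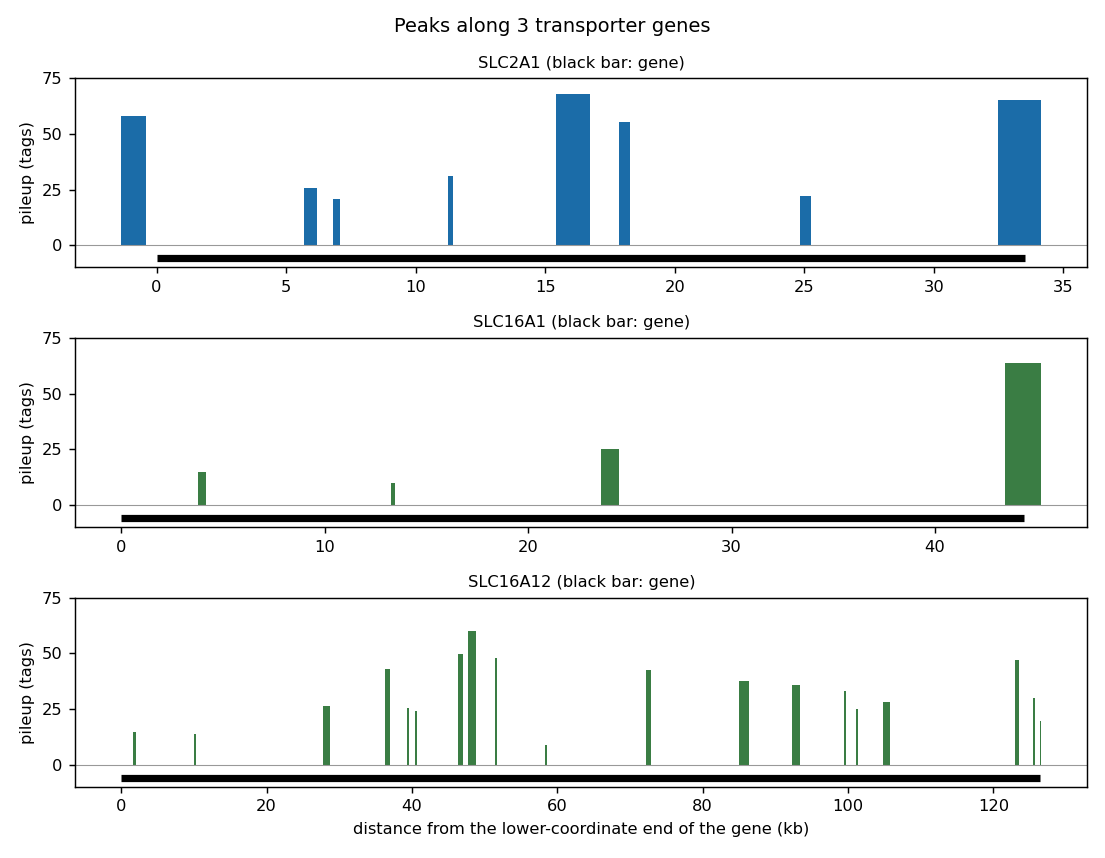
Peaks along SLC2A1, SLC16A1 and SLC16A12, drawn to scale: x, distance in kb from the lower-coordinate end of the gene; y, pileup in tags; each bar is 1 peak and the black line is the gene. SLC2A1 carries 3 tall peaks inside the gene or at its lower end besides the one at its start, SLC16A1 has 1 tall peak at its upper end, and SLC16A12 has 19 peaks along its length.

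The class I sugar carriers, the classical glucose transporters, had an end peak at 4 of 5 genes. These are too few to set against the coding share of 72.8%. SLC2A4 (GLUT4), the insulin-responsive carrier of muscle and fat, had a peak of 42.1 tags at chr17:7280576-7281956. SLC2A3 (GLUT3), the high-affinity carrier best known from neurons, had 22.4 tags at its end and a higher peak of 48.5 tags inside, at chr12:7933158-7933785. SLC2A14, a close copy of SLC2A3 on the same chromosome, had 19.4 tags at its upper end, beside the pseudogene NANOGP1, and no peak within 1 kb of its listed start. Tags from sequence that these copies share may have been placed at either, so their values are uncertain. SLC2A2 (GLUT2), the carrier of liver and pancreatic beta cells, had no end peak and 1 inside peak of 13.2 tags.

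In class II an end peak was called at 1 of 4 genes, too few to set against the coding share of 72.8%, and the 3 others had inside peaks. SLC2A11 had a peak of 37.4 tags over 1 of its 3 listed starts. SLC2A9, which carries urate, had no peak at either end of its 269 kb but 11 inside, among them 1 of 71.1 tags at chr4:10018748-10019784. That peak was centred 2.23 kb downstream of a start that RefSeq places inside the gene, and a short peak of 228 bp with 32.5 tags covered that start. SLC2A9 therefore ranked above SLC2A1 by the highest pileup of any peak, although it had no end peak. SLC2A5 (GLUT5), the fructose carrier, and SLC2A7 had only inside peaks, with highest pileups of 24.2 and 25.8 tags.

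Class III had an end peak at 4 of 5 genes, again too few to set against the coding share of 72.8%. SLC2A8 (GLUT8), a carrier of intracellular membranes, had the highest end pileup of SLC2A, 78.9 tags at chr9:127396450-127398276, in a peak of 1827 bp that was its only one. SLC2A6, with 52.3 tags, likewise had a start peak and no other. SLC2A13, a proton-coupled inositol carrier, was the longest member at 351 kb and had only 2 peaks, of 27.8 and 13 tags. SLC2A12 had 6 peaks of 11.3 to 28.5 tags. SLC2A10, whose loss causes arterial tortuosity in people, had a single weak peak of 13.2 tags over its listed start, which lies more than 1 kb inside the gene's extent.

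Among the sodium-coupled carriers, the sugar carriers had an end peak at 2 of 5 genes, each shared. The coding share was 72.8%, and 5 genes are too few to set against it. SLC5A4 had 62.9 tags at chr22:32354340-32355410, the highest of SLC5A. This peak lay at the end of RFPL3 and was centred at -99.5 kb from the listed start of SLC5A4, where negative values lie upstream. SLC5A10 had 11 peaks, of which 6 overlapped another coding gene, FAM83G or GRAP. Its highest, 62.5 tags at chr17:19002956-19003389, lay within FAM83G. Its end peak had 16.0 tags. SLC5A1 (SGLT1), the glucose carrier of the intestine, had 3 inside peaks of 13.8 to 23.8 tags, and SLC5A2 (SGLT2), that of the kidney, had 2 of 21.2 and 25.7 tags. SLC5A9 had none, and the nearest peak was 129 kb away.

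SLC5A3 and SLC5A6 were the SLC5A genes with a peak over the promoter window. SLC5A3, the myo-inositol carrier that responds to osmotic stress, had 24.8 tags at chr21:34072804-34074357, where MRPS6 also has an end. SLC5A6, the multivitamin carrier for biotin and pantothenate, had 57.4 tags at chr2:27211386-27212874, a peak shared with ATRAID. SLC5A11, the other inositol carrier, had no end peak and 7 inside ones, the highest of 49.01 tags at chr16:24848121-24848470. SLC5A5, the iodide carrier of the thyroid, held the only end peak of the family at no other coding gene end, with 15.1 tags and a fold of 2.999. No peak was called at the choline carrier SLC5A7 or at the sodium-coupled monocarboxylate carriers SLC5A8 and SLC5A12. Their nearest peaks lay 132 kb, 69.3 kb and 16.9 kb away.

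In SLC16A, the 4 lactate and pyruvate carriers covered the whole range of pileups. SLC16A3 (MCT4), the lactate exporter of glycolytic cells, had 6 peaks of 44.2 to 79.5 tags. Its highest, at chr17:82238672-82239134, lay at an end of CSNK1D as well. Its lower end carried 60.9 tags, and a peak of 73.4 tags at chr17:82231700-82232335 covered 1 of the 5 starts listed for it. No SLC16A3 peak reached a fold of 4, with folds of 2.19 to 3.64 over a local background of 21.4 tags at the highest peak. SLC16A7 (MCT2) had 1 peak of 8.53 tags at chr12:59596002-59596469, close to the lowest pileup in the whole list. SLC16A8 (MCT3), known from the retinal pigment epithelium, was the only SLC16A gene with no end peak and had 1 inside peak of 17.96 tags.

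The end peaks of SLC16A10 were of modest height, with 18.7 tags over its start and 12.0 tags at its other end. The start peak had a fold of 5.57 over a background of 2.54 tags. Among the highest end peaks of SLC16A genes this was the highest fold. The 8 genes listed as other SLC16A carriers all had an end peak, too few to set against the coding share of 72.8%. Their highest end pileups ran from 13.9 tags at the carnitine carrier SLC16A9 to 64.3 at SLC16A13. SLC16A13 and SLC16A11 are neighbours on chromosome 17, and each had a peak of its own, at chr17:7035282-7036510 with 64.3 tags and chr17:7043203-7044034 with 19.6 tags. SLC16A5 had the longest peak of all 40 genes, 1887 bp with 55.6 tags. SLC16A6, linked to ketone body transport, had a single peak of 40.4 tags, within ARSG. SLC16A4 and SLC16A14 had end peaks of 24.8 and 28.4 tags.

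SLC16A12, a creatine carrier, held 19 peaks, the most of the 40 genes. They had pileups of 8.87 to 60.3 tags with a median of 30.1, and 17 lay inside the gene. The highest was at chr10:89478055-89479118, and the one of highest fold, 8.41, was at chr10:89502494-89503151. None overlapped another coding gene. Protein-coding genes of 65.1 kb or more had a median of 6 peaks, and the 11 members of that length had a median of 5. SLC16A7 and SLC2A13 are longer than SLC16A12 and had 1 and 2.

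**Figure D4:**
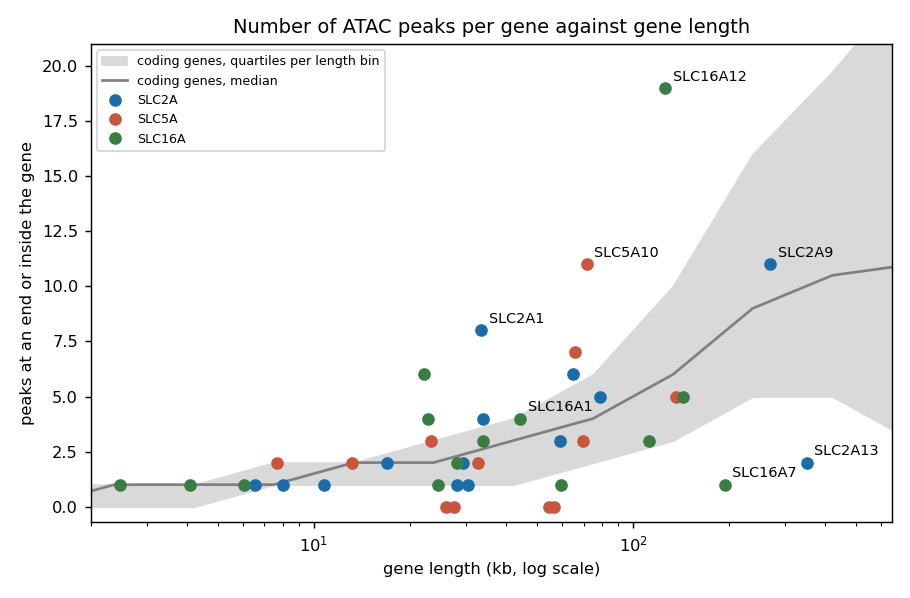
Number of peaks at an end or inside each gene (y axis) against gene length in kb (x axis, log scale); points are members by family, the grey line and band are the median and quartiles of protein-coding genes in bins of length. Genes above the band include SLC16A12 with 19, SLC5A10 with 11 and SLC2A1 with 8. Those below it include SLC16A7 with 1, SLC2A13 with 2 and the 4 SLC5A genes with no peak.

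RefSeq promoter entries were found for 30 of 40 members, with 11 in SLC2A, 10 in SLC5A and 9 in SLC16A, and gave 40 starts. A peak within 1 kb of a listed start was found at 8 of 11 SLC2A, 3 of 10 SLC5A and 8 of 9 SLC16A genes, against 74.0% of protein-coding genes with an entry. Over the promoter window itself, 250 bp before to 50 bp after the start, the counts were 8, 2 and 7, against 70.2%. The members without an entry included SLC2A3, SLC2A4, SLC2A7, SLC5A9, SLC5A11, SLC16A1, SLC16A5, SLC16A6 and SLC16A13.

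Accessible starts of members were richer in CpG, as were those of other genes. The measure was the number of CpG in the 250 bases before the start over that expected from their C and G. Its median was 0.74 at the 20 member starts with a peak over the promoter window and 0.31 at the 20 without. Over protein-coding genes the medians were 0.82 with a peak and 0.29 without. A value of at least 0.6 was reached by 15 of 20 member starts with a peak and by 4 of 20 without. Over coding promoters it was reached by 81.75% with a peak and 20.6% without, so the member counts lay near these shares. SLC2A1 had 0.755 and SLC2A8 had 0.855. Among starts without a peak, SLC5A7 had 0.695, SLC5A8 had 0.755 and SLC2A14 had 0.92. Among starts with one, SLC16A4 had 0.13 and SLC2A12 had 0.32. Several starts of a gene share sequence and peaks, so the 40 starts are not independent.

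**Figure D5:**
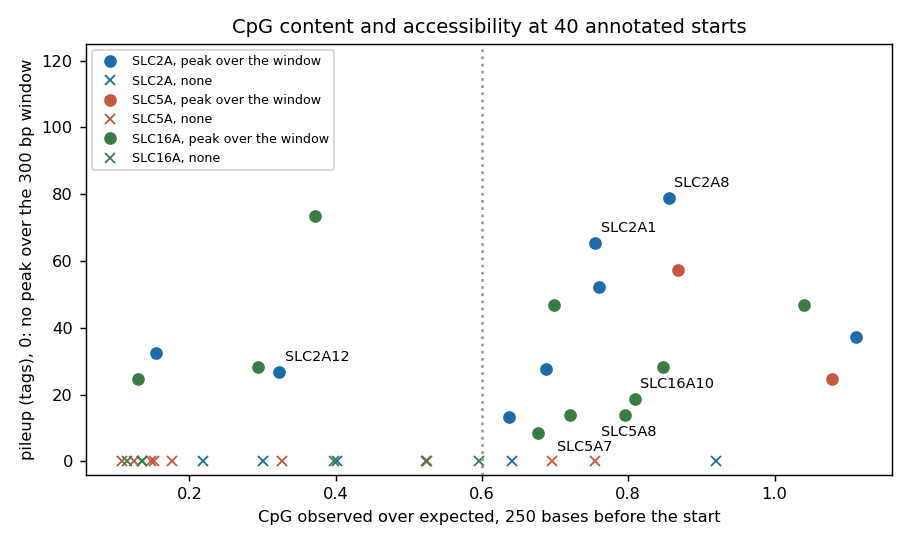
Pileup in tags of the peak over the promoter window (y axis, crosses at 0 where there is none) against CpG observed over expected in the 250 bases before the start (x axis) for the 40 listed starts; colours are families and the dotted line marks 0.6. Most filled points lie right of the line, SLC2A12 lies left of it with 26.7 tags, and SLC5A7 and SLC5A8 lie right of it with no peak.

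The motifs shown above were counted in all 22199 coding promoters, with both strands searched. The GC box was found in 53.7% of them and in 20 of the 40 member promoters, with 15 of the 20 with a peak and 5 of the 20 without. Coding promoters held it in 68.8% with a peak and 26.0% without, so the member counts lay near these shares. The CCAAT box was found in 32.7% of promoters and in 9 member promoters, the TATA box TATAAA in 9.005% and in 5. The hypoxia response core ACGTG was found in 20.2% and in 8 member promoters, the ETS core CCGGAA in 17.95% and in 2, and the AP-1 motif TGANTCA in 5.36% and in 2. The GC box overlaps CpG content, since it holds a CpG itself. A match is only a match of letters.

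Genes linked to these carriers were taken from a list of 35 genes, chosen with earlier results of these data known. They cover glycolysis, lactate and pyruvate metabolism, the MCT chaperones and TXNIP. Of these, 30 (85.7%) had an end peak, with a median pileup of 56.2 tags, against 72.8% and 45.7 tags over protein-coding genes. With folds of at least 4 alone, 21 of 35 (60.0%) had one, against 56.0% of protein-coding genes. The median fold of the highest end peak was 4.52 in the list, below the 5.02 of coding genes. LDHA, which makes lactate from pyruvate, had 74.1 tags, and the glycolytic enzyme genes ALDOA and PGK1 had 99.8 and 77.8. BSG, which encodes basigin, the chaperone that brings SLC16A1 and SLC16A3 to the membrane, had 71.6 tags at its ends. EMB, which encodes embigin, the chaperone of SLC16A7, had no peak. TXNIP, which encodes a protein that lowers glucose uptake, had 58.7 tags. HK1 had no end peak and 15 inside, and HK2 had 10 peaks with 30.9 tags at its end.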

How the data were processed

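The 2 RNA tables list Ensembl transcripts that neither the files nor the reference tables pair with genes, so they and the planned transcript levels were not analysed here. For ATAC the authors deposited a list of broad peaks from MACS 2.2.7.1. Its columns give pileup signal, fold enrichment as a ratio and −log10 p and q values, all as deposited. The caller ran on 1 library in single-end mode and had no control sample, per the file headers. It kept 1 tag per position, applied a shift of -100 bp and an extension of 200 bp, and used q limits of 0.05 (strong) and 0.1 (broad). The genome size in the header, 1870000000 bp, is the mouse preset, which enters the lowest background and thus the fold. Local background was computed as (pileup + 1)/fold − 1, the form under which its lowest value over all peaks, 2.37 tags, equals the floor set by tags and genome size. Bowtie2, SAMtools 1.13 and Picard are among the tools, and GRCh38 and mm10 among the builds, of the submitters' processing notes.

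Peaks were placed on a RefSeq table of GRCh38.p14 (Python 3.11.15, pandas 2.3.3). As a check of the build, 64.8% of coding promoters held a peak, against 4.95% to 5.68% with offsets of 5000 or 50000 bp. An overlap of 1 bp counted. Shares carry 95% Wilson intervals (scipy 1.17.1) over genes, which cover counting error only. Placement was tested on simulated peaks. The members, role lists and pathway list were chosen with earlier results of these data known. Named in full were SLC2A1, SLC16A1, the members with the highest end pileup, most peaks, longest peak or no peak in each family, and carriers known from brain endothelium (SLC2A3, SLC5A3, SLC5A6); other members were named after their values were seen. A few genes are counted but not reported here by name. Alternatives were windows of 500 and 2500 bp, −log10 q of at least 5, fold of at least 4 and overlaps of 200 bp.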

Additional observations from a re-analysis of the deposited data

How the results depend on the processing

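No paired analysis was possible because the result comes from no test and the ATAC group has 1 library. Of 158 alternative values, 142 stayed near the reported one (a share within its 95% Wilson interval, a median within 1.5 times, the same place for a rank) and 16 moved. The planned transcript levels and their alternatives were not run. The pileup filter, the other settings for listed starts, the overlap of 200 bp for peaks inside genes and the shared ends were added after seeing the data.

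Most moves came with peaks of at least 4-fold. The end share of SLC16A became 50%, below the 57.1% of SLC2A, its share with any peak 71.4%, its share with a start peak 33.3% and its median number of peaks 1. Those that lost their end peak included SLC16A1, SLC16A3, SLC16A7, SLC16A11 and SLC16A14, and also SLC2A3, SLC5A5 and SLC5A10. SLC16A1 moved to place 7 by pileup and 6 by summed length, and SLC2A1 to place 5 by number and 6 by summed length. The pathway list had 60.0%, against 56.0% of protein-coding genes. The SLC5A median number was 1 at that fold, at −log10 q of at least 5 and with as many peaks kept by highest pileup. In that last setting the SLC16A end share stayed within its interval, and SLC16A1 stood at place 7 by number of peaks, against 3 with windows of 2500 bp. By end peaks only, SLC2A1 stood at place 2 by pileup. Without shared ends SLC5A had 8.33%. Windows of 2500 bp added SLC2A10, SLC5A2 and SLC5A11 to the genes with an end peak, and windows of 500 bp removed SLC5A10. The lowest pileup called was 8.0 tags, which limits what an absent peak shows.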
